A study of Homo sapiens with 4 samples.

Results

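The comparison described here set untransfected LTAD cells against the parental LNCaP line. It used 2 of the 4 arrays of the study, chosen by their labels alone, with 1 array a side. LNCaP is an established human prostate cancer line that responds to androgen, and LTAD is a subline obtained from it by prolonged androgen deprivation. LTAD cells were kept in RPMI medium free of phenol red with 10% serum stripped of steroids by charcoal and dextran, and the LTAD culture compared here received no siRNA. LNCaP cells were maintained in RPMI medium with 10% unstripped serum and spent 24 h in phenol red-free medium with 2.5% stripped serum. The other 2 arrays came from LTAD cells transfected with a control siRNA (siControl) or with an siRNA against PSF (siPSF). Line, serum content and length of deprivation differed together, so their parts in any difference below cannot be told apart. LTAD is also a single derived line. No group had a replicate, so there is no p-value or error to print and every difference is between 2 single arrays.

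Prostate luminal cells secrete kallikreins and other proteins under the control of the androgen receptor, a transcription factor that is switched on by androgen. Charcoal stripping removes steroids from serum along with some growth factors and lipids, so cells in such medium receive little hormone. Lines that grow through this deprivation are studied as models of castration-resistant prostate cancer, in which steroid metabolism, growth signals and cell identity can all differ from the parental cells.

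Levels are log2 values of Affymetrix whole-transcript probe sets after quantile normalization of the 4 arrays, 1 probe set a gene. A gene was kept if LNCaP or untransfected LTAD read at least 7.23, the median over all genes and arrays, which kept 9568 of 18417 genes. Among the kept genes 221 were higher in LTAD by 2-fold or more (2.31%) and 334 were lower (3.49%). The median difference was 0.01, and the central 95% of differences ran from -1.24 to 0.95. LTAD alone brought 435 genes past the filter and LNCaP alone 493. Both arrays were at the filter value for 115 of the higher and 172 of the lower genes, and a fold is printed only for such genes. For the others the dimmer array was not shown to be above background, so both levels and the log2 difference are given instead. Genes at least 2-fold higher made up 39.8% of those past 2-fold here, 58.2% with the deposited values and 29.2% when arrays were aligned on their medians. Under these scalings the median difference of all kept genes was 0.20 and -0.11. Of the genes at 2-fold or more below, IL1RN, GDF11, LAMB2, TIMP2, HTRA1, ALCAM, PLXNA3, ROR1, ITPR1, TBX3, TEAD1, SMAD3, GSTM3, LSS and ARG2 fell short of it when arrays were aligned on their medians. With the deposited values CTSC, PCDHB16, PPARG, ELOVL6, ME1, PGD, PSAT1, DCK, SLC44A1, SLC12A2, SLC38A1, PLK1 and MAGEC1 fell short. Levels written as a pair joined by "against" give untransfected LTAD first and LNCaP second, and other pairs give LNCaP first.

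**Figure D1:**
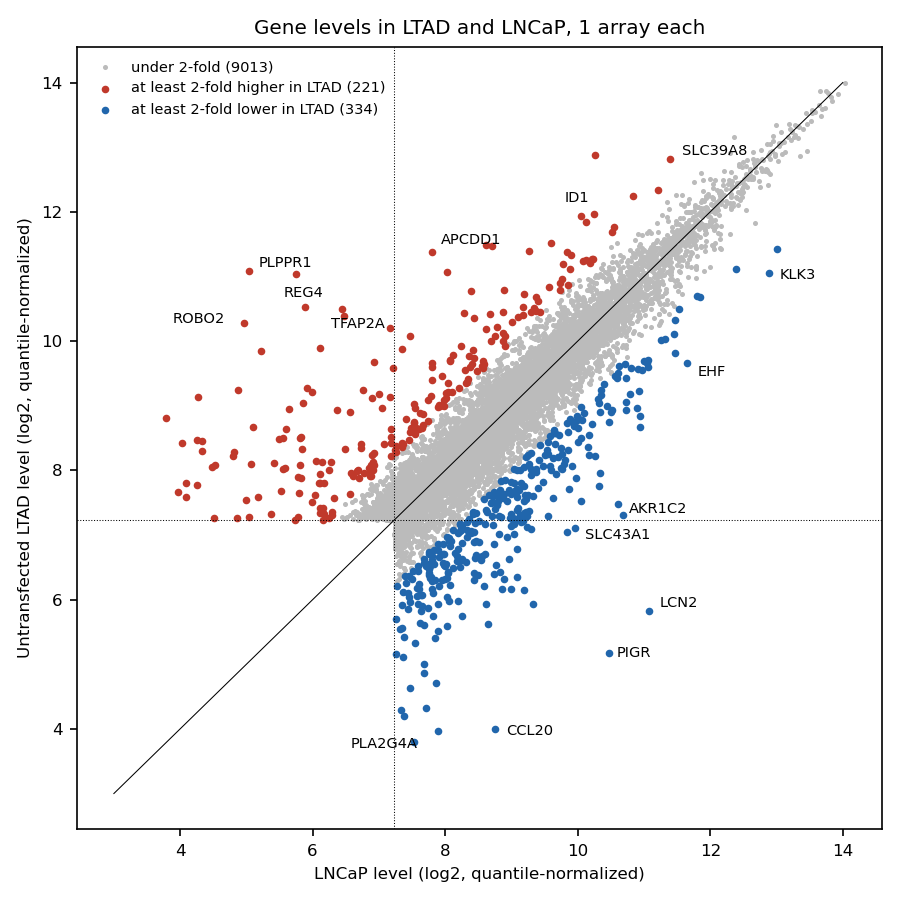
Quantile-normalized log2 level of each of the 9568 kept genes in LNCaP (horizontal axis) and untransfected LTAD (vertical axis), 1 point a gene and 1 array an axis. Red points (221) were higher and blue points (334) lower in LTAD by 2-fold or more, the solid line marks equal levels and the dotted lines the filter value of 7.23. Named red points such as PLPPR1 lie far above the line at LNCaP levels under the filter, and PIGR and LCN2 lie far below it at LTAD levels under the filter.

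The untransfected LTAD array stood apart from the siControl LTAD array. Of the kept genes, 510 were higher with siControl than in untransfected LTAD by 2-fold or more and 441 were lower, more than the 555 between untransfected LTAD and LNCaP. Set against the same LNCaP array, siControl LTAD was higher by 2-fold or more in 259 of 9763 genes (2.65%) and lower in 283 (2.90%). These comparisons share their LNCaP array. Over the 221 genes higher in untransfected LTAD, the median level was 7.35 in LNCaP, 9.0 in untransfected LTAD and 7.73 with siControl. Over the 334 lower genes it was 8.84, 7.27 and 8.37. For both sets the siControl median thus lay nearer to LNCaP than to untransfected LTAD. The sets were chosen by the difference between untransfected LTAD and LNCaP, so this is partly built in, as are the next counts. Of the 221 genes, 50 were past 2-fold on the same side with siControl, 145 were within 2-fold and 26 were past it on the other side. Of the 334 genes these counts were 84, 246 and 4. Levels from the transfected arrays are given beside part of the values below. AGR2, CLU, IL1RN, IGFBP3, EPHA3, ID1, NFKBIZ and PLA2G2A were higher in untransfected LTAD than in LNCaP, and siControl read below LNCaP by 2-fold or more. REG4, PCDH20, NRXN3, EPHA7, MEF2C and AKR1C3 were also higher in untransfected LTAD and read lowest with siControl among these 3 arrays. For these genes LNCaP and siControl were both under the filter, so their order was not shown to be above background. What sets the LTAD cultures apart was not tested.

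Markers of the labelled cell type were present in both arrays. Of 12 measured prostate luminal markers, 11 were at the filter value in LNCaP and 11 in LTAD. The luminal keratin KRT8 read 12.07 in LNCaP and 12.49 in LTAD, KRT18 read 11.60 and 12.09, and the prostate homeobox factor HOXB13 read 10.70 and 10.83. FOXA1, the pioneer factor that opens chromatin for the androgen receptor, read 11.64 and 11.83. None of 3 basal and 4 endothelial markers reached the filter in either array. Among 5 immune markers only CD68 did, in both arrays, and among 10 fibroblast and mesenchymal markers COL1A1 did in LNCaP and COL1A1 and LUM in LTAD. ENO2 was the neuroendocrine marker at the filter in LNCaP, and INSM1 joined it in LTAD, out of 5 measured. INSM1 read 6.91 in LNCaP and 7.27 in LTAD, on either side of the filter but less than 2-fold apart. In RNA from whole cultures, fewer cells of a type and less RNA per cell cannot be told apart.

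KLK3 encodes prostate-specific antigen, the protease that androgen induces in luminal cells. Its level was 12.89 in LNCaP, 11.06 in untransfected LTAD, 7.47 with siControl and 7.11 with siPSF. It was 3.55-fold lower in untransfected LTAD than in LNCaP, and both transfected LTAD arrays read far lower still. PIGR encodes the receptor that carries antibodies across epithelia, and it read 10.47 in LNCaP, 5.18 in untransfected LTAD, 5.78 with siControl and 5.99 with siPSF. Only LNCaP was above the filter for PIGR. PLPPR1, a membrane protein related to lipid phosphatases and known from neurons, read 5.03 in LNCaP, 11.08 in untransfected LTAD, 6.16 with siControl and 5.47 with siPSF. Only untransfected LTAD was above the filter for PLPPR1. The promoters of KLK3 and PIGR are shown because both genes were lower and both hold the letters AGAACA, a form of the half-site that steroid receptors bind. Each line gives the 250 bases before the start, read on the gene's strand from RefSeq, GRCh38.p14, with AGAACA in capitals. KLK3 lies at chr19:50854665-50854914 on the plus strand and PIGR at chr1:206946467-206946716 on the minus strand.
KLK3: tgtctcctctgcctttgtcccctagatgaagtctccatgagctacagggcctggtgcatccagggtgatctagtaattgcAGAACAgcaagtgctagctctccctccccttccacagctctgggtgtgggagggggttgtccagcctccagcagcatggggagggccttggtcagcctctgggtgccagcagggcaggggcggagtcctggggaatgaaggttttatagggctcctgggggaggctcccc
PIGR: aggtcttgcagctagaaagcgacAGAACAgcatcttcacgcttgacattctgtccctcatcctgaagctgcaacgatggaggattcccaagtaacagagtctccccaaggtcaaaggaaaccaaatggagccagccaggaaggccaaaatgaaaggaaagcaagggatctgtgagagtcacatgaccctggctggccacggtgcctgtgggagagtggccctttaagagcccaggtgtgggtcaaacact

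The match began 170 bases before the start in KLK3 and 227 bases before it in PIGR. AGAACA, searched on both strands of windows of 300 bases (250 before to 50 after the start), was in 14.9% of all 27305 RefSeq promoters. Of the kept genes with a promoter in that table, 8.21% held it, as did 7.65% of the higher and 9.09% of the lower genes. These shares lie close together, and the windows of KLK2 and PLPPR1 held no match. A match is only a description of the letters.

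The kept genes were read through lists of genes by function. Of 123 kept genes for secreted proteins, 13.8% were higher and 13.8% lower by 2-fold or more, against 2.31% and 3.49% of all kept genes. Adhesion genes were 14.1% higher and 5.88% lower of 85, and receptor and channel genes 10.8% higher and 3.41% lower of 176. Transcription factor genes, 264 kept, were 7.20% higher and 3.41% lower. Metabolic genes had the opposite balance, 2.60% higher and 7.80% lower of 500. Median differences were 0.21 for secreted, 0.08 for adhesion, 0.19 for receptor, 0.10 for transcription factor and -0.12 for metabolic genes. With siControl in place of untransfected LTAD the same medians were -0.09, 0.00, 0.10, 0.02 and -0.02. Genes higher and lower by 2-fold or more with siControl were 9 and 21 for secreted and 10 and 8 for adhesion genes. They were 5 and 11 for receptor genes (19 and 6 in untransfected LTAD), 9 and 11 for transcription factor and 15 and 39 for metabolic genes. These siControl medians and counts, like those of the lists below unless stated, cover genes kept through untransfected LTAD or LNCaP. Genes high in siControl LTAD alone are left out. Over the genes kept here the median of secreted genes differed in direction between the LTAD cultures. The balance of counts differed for receptor and transcription factor genes, and a filter on siControl LTAD would keep other genes. Some medians also turned with the scaling of the arrays. That of metabolic genes was 0.06 with the deposited values (0.18 over the same kept genes), and those of adhesion and transcription factor genes were -0.05 and -0.01 with median alignment (-0.11 over the same kept genes). Many members passed the filter through 1 array only, where a large difference is built in, so these shares are descriptions and no test was made. The list counts below have the same 2.31% higher and 3.49% lower of all kept genes as their reference.

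**Figure D2:**
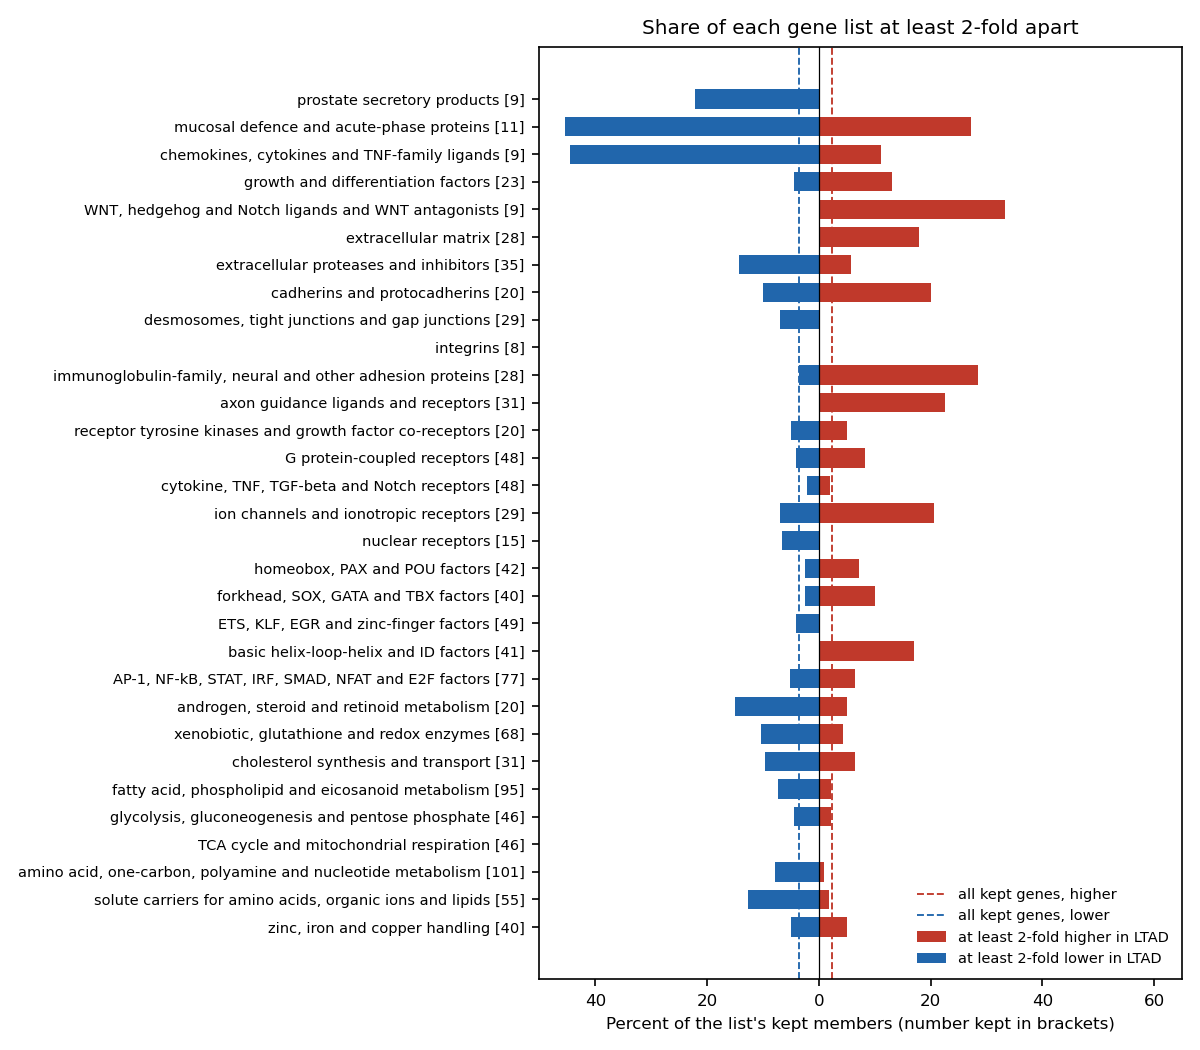
Share of each list's kept genes that were higher (red, to the right) or lower (blue, to the left) by 2-fold or more in untransfected LTAD than in LNCaP, as a percentage of the kept members in brackets. Dashed lines mark the shares of all kept genes, 2.31% higher and 3.49% lower. Neural adhesion and axon guidance lists extend mainly to the right and the cytokine list mainly to the left. The mucosal defence list extends to both sides (27.3% higher, 45.5% lower), and integrins and mitochondrial respiration show no bar.

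Of 22 measured secretory products of the prostate 9 were kept, 0 were higher and KLK3 and CRISP3 were lower. The median was 0.04, and -0.09 when arrays were aligned on their medians, where all kept genes had -0.11. KLK2, the kallikrein that activates the KLK3 product, read 9.31 in LNCaP, 9.35 in untransfected LTAD, 8.45 with siControl and 8.11 with siPSF. Untransfected LTAD and LNCaP had almost the same KLK2 level, unlike KLK3. KLK4, another prostate kallikrein, read 9.73 in LNCaP and 9.95 in untransfected LTAD. SPON2, a matrix protein, read 11.75 and 12.01, and AZGP1, a zinc-binding glycoprotein of seminal fluid, 9.97 and 10.15. The LTAD cultures differed in AZGP1, which read 6.87 with siControl. CRISP3, a cysteine-rich secretory protein, read 8.25 in LNCaP and 5.74 in LTAD, where it was under the filter. The siControl median of this list was -0.86.

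Mucosal defence proteins were split. Of 50 measured genes 11 were kept, with 3 higher and 5 lower and a median of -0.16. SLPI, a protease inhibitor of secretions, read 9.55 in LNCaP, 7.29 in untransfected LTAD, 8.06 with siControl and 7.67 with siPSF, which was 4.79-fold lower in untransfected LTAD than in LNCaP. PI3, the related inhibitor elafin, read 7.64 in LNCaP and 5.82 in LTAD. LCN2, which binds bacterial iron carriers, read 11.07 and 5.82, and CP, the copper protein ceruloplasmin, 7.71 and 4.33. For PI3, LCN2 and CP, as for PIGR, LTAD was under the filter. Against these, AGR2, an endoplasmic reticulum protein of secretory epithelia, was 3.07-fold higher in untransfected LTAD. AGR2 levels were 8.08 in LNCaP, 9.69 in untransfected LTAD, 4.89 with siControl and 5.02 with siPSF. Clusterin (CLU), a secreted chaperone, was 2.49-fold higher at 10.07 against 8.76. Both genes were under the filter in both transfected LTAD cultures, with CLU at 5.85 under siControl. REG4, a secreted lectin-like protein, read 6.44 in LNCaP and 10.49 in untransfected LTAD and was also under the filter with siControl at 4.77. The list's siControl median was -1.66.

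Immune ligands included 1 higher and 4 lower genes among 9 kept of 55 measured. CCL20, a chemokine that attracts CCR6-bearing cells, read 8.76 in LNCaP and 4.0 in LTAD. TNFSF15 read 8.55 and 6.62, TNFSF10, the death ligand TRAIL, 7.33 and 4.30, and IL32 8.47 and 6.70. All 4 were under the filter in LTAD. IL1RN, the natural antagonist of the interleukin-1 receptor, was 2.13-fold higher at 8.99 against 7.89, with 6.65 under siControl.

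Growth and differentiation factors lay slightly above LNCaP. Of 95 measured, 23 were kept, 17 of these had differences above 0 and the median was 0.19, against 0.01 over all kept genes. IGFBP3, which binds insulin-like growth factors, was 2.33-fold higher in untransfected LTAD. Its levels were 10.55 in LNCaP, 11.77 in untransfected LTAD, 7.55 with siControl and 7.73 with siPSF, so the transfected LTAD arrays lay below LNCaP. GDF11, a ligand of the TGF-beta family, was 2.06-fold higher at 8.64 against 7.60, and NRG3, a ligand of the receptor ERBB4, read 8.12 against 5.42, under the filter in LNCaP. GDF15, a stress-responsive member of the TGF-beta family, was 2.43-fold lower. It read 12.40 in LNCaP, 11.11 in untransfected LTAD, 13.01 with siControl and 13.29 with siPSF, so the transfected LTAD arrays lay above LNCaP.

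WNT, hedgehog and Notch ligands and WNT antagonists included 3 higher and 0 lower genes among 9 kept of 45 measured, with a median of 0.38. APCDD1, a membrane inhibitor of WNT signalling, read 7.81 in LNCaP, 11.37 in untransfected LTAD, 7.62 with siControl and 7.59 with siPSF and was 11.84-fold higher in untransfected LTAD. JAG1, a Notch ligand, read 8.40 in LNCaP, 10.77 in untransfected LTAD, 9.40 with siControl and 9.74 with siPSF and was 5.20-fold higher. SHH, the sonic hedgehog ligand, read 6.77 in LNCaP, 9.24 in untransfected LTAD, 6.56 with siControl and 6.38 with siPSF, with LNCaP under the filter. Both transfected LTAD arrays resembled LNCaP for APCDD1 and SHH, whereas JAG1 was above LNCaP in all 3 LTAD arrays. JAG2 differed less, at 8.97 in LNCaP and 9.34 in LTAD. Known target genes of these pathways appear among the receptors and transcription factors below.

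Extracellular matrix genes were 5 higher and 0 lower among 28 kept of 120 measured, with 23 above 0 and a median of 0.42 (0.09 with siControl). SMOC1, a calcium-binding matrix protein, read 5.86 in LNCaP and 9.05 in untransfected LTAD. COL5A2, a fibrillar collagen chain, read 5.49 and 8.48, LUM, the proteoglycan lumican, 3.78 and 8.80, and CCDC80 5.74 and 11.03. These 4 genes passed the filter through untransfected LTAD, and with siControl they read 5.94, 5.49, 3.21 and 5.60. LAMB2, a laminin chain, was 2.14-fold higher at 10.47 against 9.37, and the abundant fibronectin FN1 hardly differed, at 12.54 and 12.70. LUM is also a fibroblast marker. Of 21 measured fibroblast and mesenchymal genes 5 were kept, with LUM and TWIST1 higher, COL1A1 at 0.28, SNAI2 at -0.36 and VIM at -0.68 (7.15 against 7.84, and 9.03 with siControl). The part of other cells in these values was not tested, and the endothelial markers were all under the filter.

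Extracellular proteases and their inhibitors were 2 higher and 5 lower among 35 kept of 107 measured. TIMP2, a metalloprotease inhibitor, was 2.07-fold higher at 9.53 against 8.48, and HTRA1, a serine protease, 2.02-fold higher at 8.28 against 7.26. MMP16, a membrane-bound metalloprotease, was 2.91-fold lower at 8.32 against 9.86, and the siControl array read 4.31. Cathepsin C (CTSC) was 2.18-fold lower at 7.24 against 8.37, but higher than LNCaP with siControl at 9.27. MMP7, CTSV and TMPRSS11E were lower, with log2 differences of -3.18, -1.56 and -1.39, each under the filter in LTAD.

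**Figure D3:**
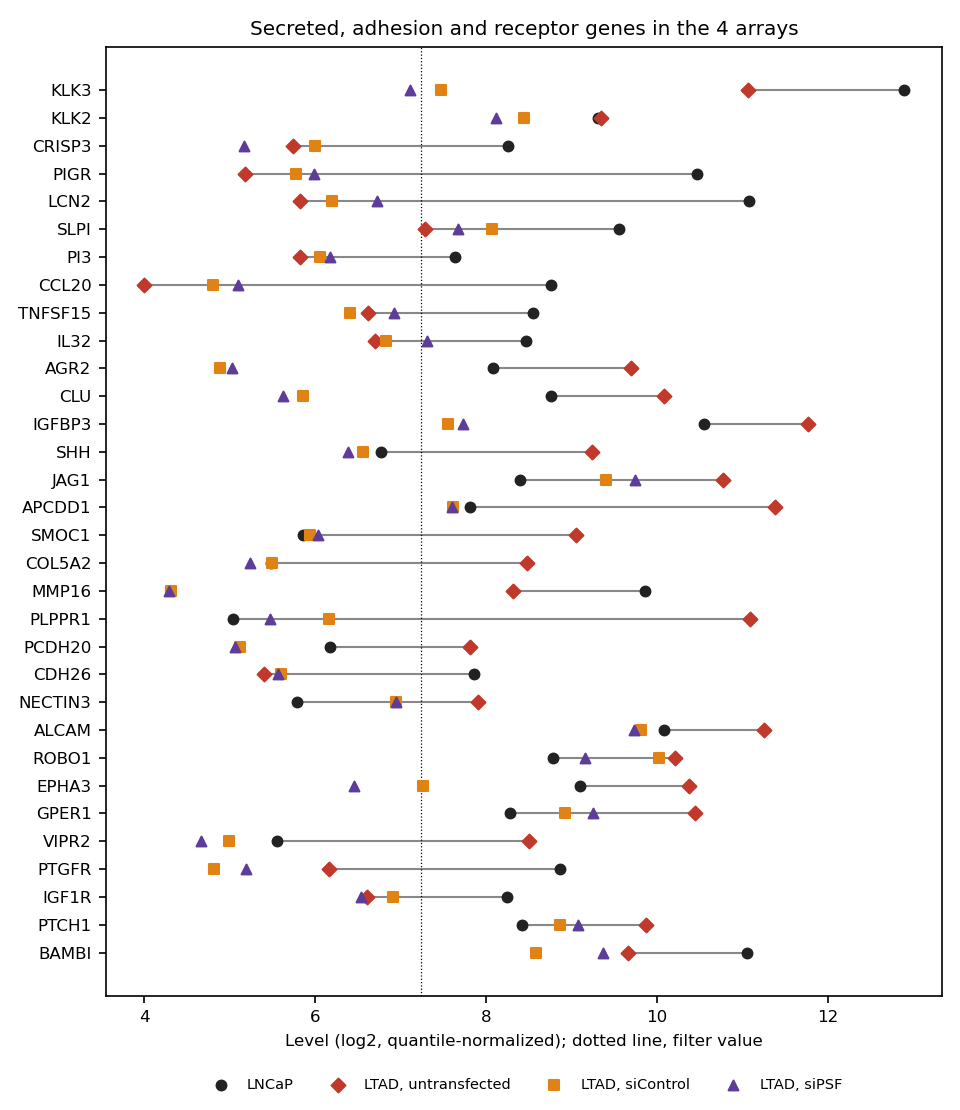
Quantile-normalized log2 levels of 32 genes for secreted, adhesion and receptor proteins in LNCaP (circles), untransfected LTAD (diamonds), siControl LTAD (squares) and siPSF LTAD (triangles), 1 array each. A grey bar joins LNCaP and untransfected LTAD and the dotted line is the filter value of 7.23. Transfected arrays lie beside LNCaP for genes such as SMOC1 and APCDD1, beside untransfected LTAD for PIGR and IGF1R, and outside both for AGR2 and CLU.

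Among adhesion genes, the epithelial proteins CDH1 and CLDN7 had almost the same levels in both arrays. CDH1, the E-cadherin of epithelial junctions, read 12.06 in LNCaP, 12.0 in untransfected LTAD, 12.05 with siControl and 11.99 with siPSF. Claudin CLDN7, a tight junction protein, read 11.51 in LNCaP and 11.59 in LTAD. Integrins had 0 higher and 0 lower genes among 8 kept of 25 measured, with ITGB1 at 9.90 and 9.93 and ITGAV at 9.87 and 9.88. Desmosome, tight junction and gap junction genes were 0 higher and 2 lower among 29 kept of 60. The lower ones were the desmosomal cadherin DSC3, at 7.53 in LNCaP and 3.79 in LTAD, and the connexin GJC1, at 7.76 and 6.41. LTAD was under the filter for both.

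Cadherins and protocadherins, CDH1 included, were 4 higher and 2 lower among 20 kept of 63. PCDH19, PCDH20, CDH12 and FAT4 were higher, with log2 differences of 4.86, 1.64, 4.21 and 3.98, each under the filter in LNCaP. PCDH20 read 5.12 with siControl and 6.17 in LNCaP, both under the filter. CDH26 read 7.85 in LNCaP and 5.40 in LTAD and PCDHB16 7.36 and 6.13, each under the filter in LTAD. The list of immunoglobulin-family, neural and other adhesion proteins was 8 higher and 1 lower among 28 kept of 91, with a median of 0.36. With siControl it was 6 higher and 4 lower, with a median of -0.06. NLGN1, a postsynaptic neuroligin, was 3.17-fold higher at 9.78 against 8.12. NRXN3, a neurexin and so a partner of neuroligins, read 8.52 against 5.83. ALCAM, a cell adhesion molecule of the immunoglobulin family, was 2.25-fold higher at 11.25 against 10.08, and NECTIN3 read 7.90 against 5.78. LRRTM4, a synaptic organiser, read 8.11 against 5.07 and the teneurin TENM2 8.03 against 5.55. The siControl levels were 7.77 for LRRTM4 and 8.01 for TENM2, near untransfected LTAD, but 4.72 for NRXN3, under the filter as in LNCaP. SLITRK6 was the lower gene, at 7.37 in LNCaP and 5.11 in LTAD. NCAM2, a neural cell adhesion molecule, was level at 11.47 and 11.46.

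Axon guidance genes steer growing nerve fibres and also act in epithelia and tumours. They were 7 higher (22.6%) and 0 lower among 31 kept of 73 measured, against 2.31% and 3.49% of all kept genes. Of the 31, 27 had differences above 0, and the median was 0.38. With siControl 1 was higher and 3 were lower, with a median of 0.12. ROBO1, a receptor for SLIT proteins, read 8.78 in LNCaP, 10.21 in untransfected LTAD, 10.02 with siControl and 9.15 with siPSF. It was 2.71-fold higher in untransfected LTAD, and all LTAD arrays were above LNCaP. ROBO2 read 4.96 in LNCaP, under the filter, and 10.28 in LTAD. SEMA6A, a transmembrane semaphorin, was 2.66-fold higher at 11.19 against 9.78, with both transfected arrays below LNCaP at 9.14 and 9.07. The ephrin receptor EPHA3 was 2.42-fold higher at 10.37 against 9.10, and EPHA7 read 8.35 against 6.73. Neuropilin NRP1 and plexin PLXNA3, which form semaphorin receptors, were 2.37-fold and 2.11-fold higher. The siControl levels were 7.26 for EPHA3, below LNCaP, and 4.48 for EPHA7, which was under the filter in LNCaP too.

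Receptor tyrosine kinases were nearly level, 1 higher and 1 lower among 20 kept of 52. ROR1, a receptor for WNT5A, was 2.06-fold higher at 9.36 against 8.32. IGF1R, the receptor of insulin-like growth factors, read 8.24 in LNCaP, 6.61 in untransfected LTAD, 6.91 with siControl and 6.53 with siPSF. It was above the filter in LNCaP alone, and its 2 probe sets differed by -1.66 and -1.63. G protein-coupled receptors were 4 higher and 2 lower among 48 kept of 217, with 39 above 0 and a median of 0.21. GPER1, a membrane receptor for estrogen, read 8.28 in LNCaP, 10.44 in untransfected LTAD, 8.92 with siControl and 9.25 with siPSF and was 4.46-fold higher in untransfected LTAD. All 3 LTAD arrays were above LNCaP. VIPR2, a receptor of vasoactive intestinal peptide, read 8.50 against 5.56, HTR7, a serotonin receptor, 9.85 against 5.23, and ADGRL3, a latrophilin, 8.42 against 4.03. LNCaP was under the filter for these 3. PTGFR, the prostaglandin F receptor, read 6.16 against 8.86 and GPR158 7.12 against 9.23, with LTAD under the filter.

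Receptors for cytokines, TGF-beta, hedgehog and Notch were 1 higher and 1 lower among 48 kept of 103. Each share was 2.08%, near or under the 2.31% and 3.49% of all kept genes. PTCH1, the hedgehog receptor and itself a target of the pathway, read 8.41 in LNCaP, 9.86 in untransfected LTAD, 8.86 with siControl and 9.07 with siPSF. It was 2.73-fold higher in untransfected LTAD, and the transfected arrays lay between. BAMBI, a decoy receptor that limits TGF-beta signals, read 11.05 in LNCaP, 9.65 in untransfected LTAD, 8.59 with siControl and 9.36 with siPSF and was 2.63-fold lower. NOTCH1 read 8.02 and 8.58. Ion channels were 6 higher and 2 lower among 29 kept of 185, with a median of 0.29. KCNMB4, a subunit of calcium-activated potassium channels, read 8.15 against 6.06, and CACNA1D, a voltage-gated calcium channel, 8.23 against 6.89. The inositol trisphosphate receptor ITPR1, which releases calcium from stores, was 2.04-fold higher at 8.63 against 7.61. CHRNA5, a nicotinic acetylcholine receptor subunit, was 2.48-fold lower at 8.0 against 9.31 and above LNCaP with siControl at 9.93.

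Basic helix-loop-helix and ID factors, which include the targets of Notch and BMP signals, were 7 higher and 0 lower among 41 kept of 85 measured. Their median was 0.22, and 34 of the 41 were above 0. HES1, a repressor induced by Notch, read 8.61 in LNCaP, 10.18 in untransfected LTAD, 8.60 with siControl and 8.70 with siPSF and was 2.97-fold higher in untransfected LTAD. The other 3 arrays lay close together. HEY1, a further Notch target, read 7.62 against 6.04, with LNCaP under the filter. ID1 and ID2 encode inhibitors of DNA binding that BMP signals induce. ID1 read 10.24 in LNCaP, 11.96 in untransfected LTAD, 6.06 with siControl and 5.89 with siPSF. It was 3.29-fold higher in untransfected LTAD and under the filter in both transfected LTAD arrays. ID2 read 9.19 in LNCaP, 10.73 in untransfected LTAD, 9.05 with siControl and 9.90 with siPSF and was 2.91-fold higher. AHR, the dioxin receptor, TWIST1 and BHLHE41 were higher, with log2 differences of 1.08, 1.33 and 1.98, with LNCaP under the filter. MYC was lower by less than 2-fold, at 10.99 in LNCaP and 10.55 in LTAD.

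Homeobox, PAX and POU factors were 3 higher and 1 lower among 42 kept of 119. MSX2, a BMP-responsive homeobox factor, was 2.58-fold higher at 9.16 against 7.79, and SIX4 2.52-fold lower at 7.81 against 9.14. ZFHX4 and DACH1 read 10.20 against 7.17 and 8.46 against 4.33, with LNCaP under the filter. Forkhead, SOX, GATA and TBX factors and related families were 4 higher and 1 lower among 40 kept of 90. TFAP2A, an AP-2 factor of ectodermal development, read 7.48 in LNCaP, 10.07 in untransfected LTAD, 7.14 with siControl and 7.34 with siPSF. It was 6.06-fold higher in untransfected LTAD, and the other LTAD arrays lay just below LNCaP. LEF1, the factor through which beta-catenin acts, read 9.57 in LNCaP, 10.84 in untransfected LTAD, 9.35 with siControl and 9.92 with siPSF and was 2.41-fold higher. TBX3, a T-box repressor, was 2.17-fold higher at 11.25 against 10.13, and TEAD1, the partner of YAP, 2.01-fold at 9.58 against 8.57. FOXM1, which drives mitotic genes, was 2.84-fold lower at 8.25 against 9.76, and above LNCaP with siControl at 10.21.

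ETS, KLF and other zinc-finger factors were 0 higher and 2 lower (4.08%, near the 3.49% of all kept genes) among 49 kept of 95. EHF, an epithelial ETS factor, read 11.65 in LNCaP, 9.66 in untransfected LTAD, 8.13 with siControl and 8.41 with siPSF and was 3.99-fold lower in untransfected LTAD, with the transfected arrays lower still. KLF7 read 5.93 against 8.62, under the filter in LTAD. Among AP-1, NF-kB, SMAD, E2F and related factors 5 were higher and 4 lower of 77 kept and 112 measured. NFKBIZ, an atypical inhibitor of NF-kB, was 2.62-fold higher at 8.80 against 7.41, with 5.86 under siControl. SMAD3, a transducer of TGF-beta, was 2.01-fold higher at 8.65 against 7.64, and SMAD7, the inhibitor that TGF-beta induces, read 8.04 against 6.85. MEF2C, a factor of muscle and nerve cells, read 8.90 in untransfected LTAD, 6.56 in LNCaP and 4.47 with siControl. The lower members belong to the cell cycle or to the MYB family. MYBL2 was 3.15-fold lower at 8.16 against 9.81, while E2F7, E2F8 and MYB were lower, with log2 differences of -1.58, -2.08 and -1.55 and under the filter in LTAD. Nuclear receptors were 0 higher and 1 lower (PPARG, -1.08) among 15 kept of 39.

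**Figure D4:**
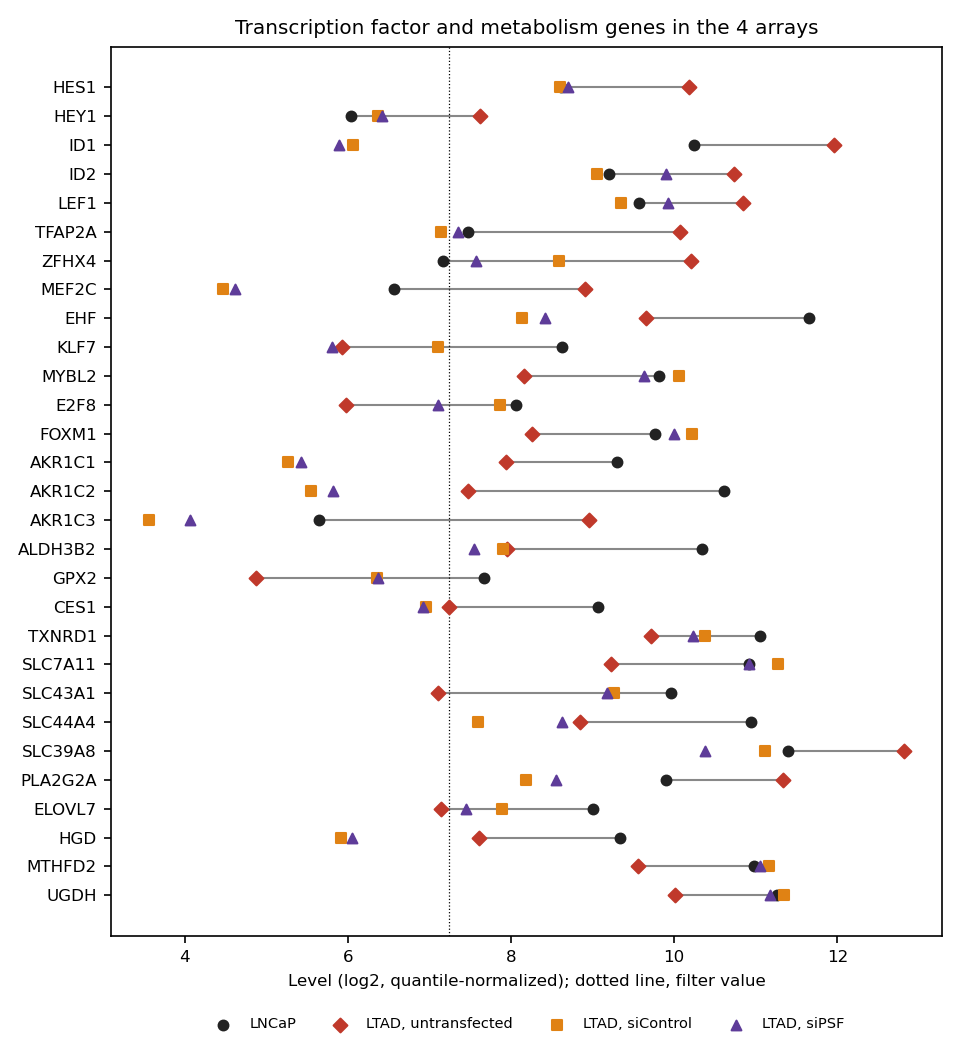
Quantile-normalized log2 levels of 29 genes for transcription factors (top) and metabolic proteins (bottom) in LNCaP (circles), untransfected LTAD (diamonds), siControl LTAD (squares) and siPSF LTAD (triangles), 1 array each, with the filter value of 7.23 as a dotted line. Untransfected LTAD is the highest of the 4 arrays for HES1, ID1 and TFAP2A and the lowest for FOXM1, MYBL2, SLC7A11 and MTHFD2.

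Steroid and retinoid enzymes were 1 higher and 3 lower among 20 kept of 67 measured. The aldo-keto reductases AKR1C1, AKR1C2 and AKR1C3 reduce steroids, and AKR1C3 makes testosterone from androstenedione. AKR1C3 read 5.64 in LNCaP, 8.95 in untransfected LTAD, 3.56 with siControl and 4.06 with siPSF, so that only untransfected LTAD was above the filter. AKR1C2 read 10.61 in LNCaP, 7.47 in untransfected LTAD, 5.54 with siControl and 5.82 with siPSF and AKR1C1 9.30 in LNCaP, 7.93 in untransfected LTAD, 5.26 with siControl and 5.42 with siPSF. Both transfected LTAD arrays were under the filter for all 3 genes. The sequences of these genes are similar, so their probe sets may share signal, and the 2 probe sets of AKR1C1 differed by -1.37 and 0.62. UGT2B17, which conjugates androgens for removal, was level at 7.43 in LNCaP and 7.32 in LTAD, and shares sequence with its own family. ALDH1A3, which makes retinoic acid, read 7.07 against 8.39 in the brighter of 2 probe sets, and the other differed by -0.03.

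Xenobiotic, glutathione and redox enzymes were 3 higher and 7 lower among 68 kept of 115. ALDH3B2, an aldehyde dehydrogenase, was 5.24-fold lower at 7.95 against 10.34, and CES1, a carboxylesterase, 3.55-fold lower at 7.24 against 9.07. In both, the transfected arrays were low as well, at 7.90 and 6.95 with siControl. TXNRD1, the thioredoxin reductase, was 2.54-fold lower at 9.71 against 11.06, and ABCC4, an exporter of organic anions, 3.47-fold lower. GPX2, a glutathione peroxidase of epithelia, read 4.87 against 7.67, under the filter in LTAD. GSTM3 was 2.01-fold higher, and CYP4B1 and CYP1A2 were higher, with log2 differences of 1.86 and 1.35 and LNCaP under the filter.

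In cholesterol synthesis and transport 2 were higher and 3 lower among 31 kept of 47. LSS, which closes the steroid ring system, was 2.04-fold higher at 8.77 against 7.74, and OSBPL8, a lipid transfer protein, 2.46-fold lower at 9.43 against 10.72. ABCA12, a lipid transporter, read 6.17 against 8.99, under the filter in LTAD. Fatty acid, phospholipid and eicosanoid genes were 2 higher (2.11%) and 7 lower (7.37%) among 95 kept of 144, against 2.31% and 3.49% of all kept genes. PLA2G2A, a secreted phospholipase, read 9.90 in LNCaP, 11.34 in untransfected LTAD, 8.19 with siControl and 8.56 with siPSF and was 2.70-fold higher in untransfected LTAD. Both transfected arrays read below LNCaP. The fatty acid elongase ELOVL6 was 2.14-fold lower at 7.32 against 8.41, and ELOVL7 read 7.14 against 9.0. ME1, an enzyme that makes NADPH for lipid synthesis, was 2.32-fold lower at 8.77 against 9.98, and ACSM3, an acyl-CoA synthetase, 2.69-fold lower.

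Central carbon metabolism was close to level. Glycolysis, gluconeogenesis and pentose phosphate genes were 1 higher (2.17%) and 2 lower (4.35%) among 46 kept of 77. These shares lay near the 2.31% and 3.49% of all kept genes. TCA cycle and respiration genes were 0 and 0 among 46 kept of 52. Their median was -0.13, and 0.02 with the deposited values, where all kept genes had 0.20. GAPDH, the glycolytic dehydrogenase, read 13.65 in LNCaP and 13.86 in LTAD. ENO2, the neuronal form of enolase, was 2.43-fold higher at 10.29 against 9.01. UGDH, which makes the sugar donor for glucuronidation, was 2.37-fold lower at 10.01 against 11.26 but 11.34 with siControl, and PGD, of the pentose phosphate pathway, was 2.05-fold lower.

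Amino acid, one-carbon and nucleotide genes leaned lower, 1 higher and 8 lower among 101 kept of 148, with 73 below 0 and a median of -0.24 (-0.01 with siControl). HGD, which degrades homogentisate from tyrosine, was 3.32-fold lower at 7.60 against 9.33, and both transfected arrays were under the filter, at 5.92 with siControl. MTHFD2, a mitochondrial folate enzyme, read 10.97 in LNCaP, 9.56 in untransfected LTAD, 11.16 with siControl and 11.05 with siPSF and was 2.67-fold lower in untransfected LTAD. PSAT1, of serine synthesis, was 2.17-fold lower at 9.24 against 10.35. TK1, RRM2, TYMS and DCK, which supply nucleotides for DNA, were 3.01-fold, 3.17-fold, 2.53-fold and 2.20-fold lower. ARG2, the mitochondrial arginase, was 2.07-fold higher at 10.78 against 9.73.

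Solute carriers were 1 higher and 7 lower among 55 kept of 104, with 40 below 0. Their median was -0.19, and 0.04 with the deposited values, where all kept genes had 0.20. SLC7A11, the cystine importer that feeds glutathione synthesis, read 10.92 in LNCaP, 9.23 in untransfected LTAD, 11.28 with siControl and 10.91 with siPSF. It was 3.24-fold lower in untransfected LTAD, and level with LNCaP or above it in the transfected arrays. SLC44A4 and SLC44A1, both choline transporter-like proteins, were 4.29-fold and 2.15-fold lower, the first at 8.84 against 10.94. SLC4A4, a bicarbonate cotransporter, was 4.43-fold lower at 7.72 against 9.86, SLC12A2, the sodium, potassium and chloride cotransporter, 2.14-fold lower, and the glutamine carrier SLC38A1 2.14-fold lower. SLC43A1, a carrier of large neutral amino acids, read 9.96 in LNCaP, 7.10 in untransfected LTAD, 9.26 with siControl and 9.17 with siPSF. Untransfected LTAD was the array under the filter for SLC43A1. In zinc, iron and copper handling 2 were higher and 2 lower among 40 kept of 60. The zinc importer SLC39A8 read 11.39 in LNCaP, 12.82 in untransfected LTAD, 11.12 with siControl and 10.38 with siPSF and was 2.69-fold higher in untransfected LTAD, and SLC39A2, another zinc importer, read 8.67 against 5.09, under the filter in LNCaP. MT2A, a metallothionein that binds zinc, was lower by less than 2-fold at 11.82 against 12.68 in the probe set used. Its 3 probe sets ranged from -1.10 to -0.86.

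Genes of mitosis and DNA replication were lower almost as a block. Of 49 measured, 48 were kept, 0 were higher and 39 lower by 2-fold or more, and all 48 were below 0, from -1.95 to -0.39. The median difference was -1.24, against 0.01 over all kept genes, and -1.03 against 0.20 with the deposited values. The count past 2-fold depended on the scaling. Over the 61 kept genes of this list and the cancer-testis antigens together, 41 were lower here. With the deposited values 26 were, and with median alignment 44. Median levels of the 48 were 9.47 in LNCaP, 8.29 in untransfected LTAD, 9.45 with siControl and 9.28 with siPSF. Untransfected LTAD was thus the array that stood apart, and with siControl in its place the median difference from LNCaP was -0.0011, with 1 gene higher and 1 lower by 2-fold or more. KIF11, the kinesin that separates spindle poles, read 9.04 in LNCaP, 7.17 in untransfected LTAD, 8.90 with siControl and 8.20 with siPSF. CCNB2, a mitotic cyclin, read 10.04 in LNCaP, 8.49 in untransfected LTAD, 10.09 with siControl and 10.04 with siPSF and was 2.93-fold lower in untransfected LTAD. PLK1, a mitotic kinase, read 10.61 in LNCaP, 9.50 in untransfected LTAD, 11.24 with siControl and 11.07 with siPSF and was 2.16-fold lower. The proliferation marker MKI67 was 2.59-fold lower at 7.72 against 9.09, with 9.17 under siControl. Replication genes went the same way, with the helicase loader CDC6 at 7.22 against 9.17 and under the filter in LTAD, and the sliding clamp PCNA 2.54-fold lower at 8.66 against 10.0. Growth rate and density of the cultures at harvest are not given in the sources used here, and their part was not tested.

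**Figure D5:**
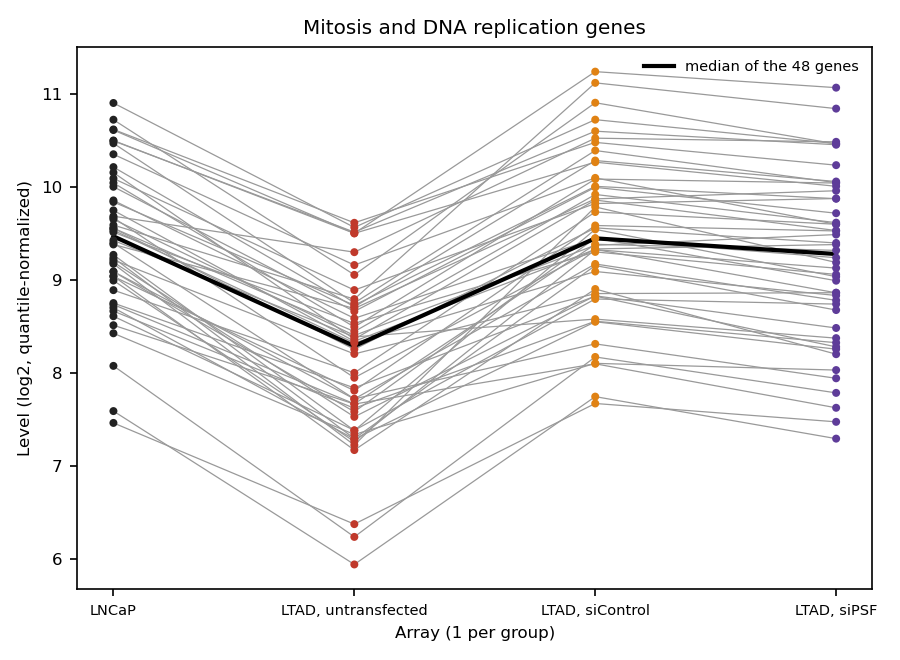
Quantile-normalized log2 levels of the 48 kept mitosis and DNA replication genes in the 4 arrays, 1 array a group, with a thin line for each gene and a thick line for their median. The median is 9.47 in LNCaP, 8.29 in untransfected LTAD, 9.45 with siControl and 9.28 with siPSF, and every gene reads lower in untransfected LTAD than in LNCaP.

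Promoters of this list are shown because some members carry both a CCAAT box (CCAAT) and a cell cycle gene homology region, CHR (TTTGAA). These elements are known from mitotic genes. Of 41 members with a RefSeq promoter, 7 held both within the 120 bases before the start. The 4 of these with the largest differences follow, read on the gene's strand from GRCh38.p14. Those not printed were KIF23, at a log2 difference of -1.09, and PRC1 and CDC20, which were lower by less than KIF23. Capitals mark matches of either motif on either strand (the reverse forms read ATTGG and TTCAAA), and in MKI67 a CHR and a CCAAT box overlap. KIF11 lies at chr10:92593010-92593129, CCNB2 at chr15:59105026-59105145 and PLK1 at chr16:23678769-23678888, all on the plus strand, and MKI67 at chr10:128126424-128126543 on the minus strand.
KIF11: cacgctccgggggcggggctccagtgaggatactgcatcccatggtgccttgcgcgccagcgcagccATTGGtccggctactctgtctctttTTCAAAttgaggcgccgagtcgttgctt
CCNB2: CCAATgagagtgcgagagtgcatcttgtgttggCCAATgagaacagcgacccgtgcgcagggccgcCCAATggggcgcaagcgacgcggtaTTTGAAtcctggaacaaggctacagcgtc
PLK1: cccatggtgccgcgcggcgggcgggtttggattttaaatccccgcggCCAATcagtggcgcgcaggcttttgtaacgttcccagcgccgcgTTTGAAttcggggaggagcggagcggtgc
MKI67: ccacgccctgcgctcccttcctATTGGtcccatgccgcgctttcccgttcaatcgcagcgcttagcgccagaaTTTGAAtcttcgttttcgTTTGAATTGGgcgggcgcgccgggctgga

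In CCNB2 and PLK1 the CHR began 29 bases before the start, and in KIF11 28 bases before it. Over windows of 300 bases, CCAAT was in 73.2% of the 41 members, 38.1% of kept genes and 35.7% of all promoters. TTTGAA was in 36.6% of the members, 9.14% of kept genes and 15.4% of all promoters, and both together in 29.3%, 4.05% and 6.08%. Of the genes at least 2-fold lower that are outside the list, 14.7% held both. The higher genes also lay above kept genes for TTTGAA (15.9%) and for both together (7.06%), but not for CCAAT (32.9%). The E2F core TTCCCGC was in 29.3% of the members, 18.2% of all lower genes and 2.35% of the higher genes, against 11.1% of kept genes. These shares describe letters in the windows and show no binding.

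Cancer-testis antigens, which tumours can express outside the germ line, were 0 higher and 2 lower among 13 kept of 45. MAGEC2 read 4.71 against 7.86 and MAGEC1 6.53 against 7.77, both under the filter in LTAD. MAGED1, a broadly expressed relative, was 11.83 against 11.19. Genes at least 2-fold higher had a median genomic span of 78.8 kb and the lower genes 37.3 kb, against 29.1 kb over all kept genes. The share of genes past 2-fold was smaller the higher the dimmer array read, from 28.9% of 928 genes under the filter to 4.38% of 4976 between 7.23 and 9, 2.08% of 3082 between 9 and 11 and 0.859% of 582 at 11 or above. Genes under the filter were kept only through their brighter array, and grouping by the dimmer array ties the group to the difference. The trend is therefore partly built in.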

How the data were processed

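Total RNA from 4 cultures was hybridised to Affymetrix whole-transcript arrays. The deposited log2 levels were made by the authors, who used RMA and Affymetrix Expression Console according to the submitters' processing notes. The sources used here give no settings, array batches or detection calls. Deposited column medians were 6.91 for LNCaP, 7.20 for LTAD, 5.98 for siControl and 6.04 for siPSF, so all 4 columns were quantile-normalized over 33297 probe sets. Symbols from the platform annotation were updated through Entrez IDs to RefSeq GRCh38.p14 (19429 matched). 19460 probe sets had 1 symbol, 1754 several and 12083 none. Of several probe sets of a gene, the one with the highest mean was used. Genes reaching the median of all gene values, 7.23, in LNCaP or LTAD were kept. The threshold was 2-fold, without a test.

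Members and lists were chosen with earlier results of these data known. Named genes were the marker genes, the 15 highest and 15 lowest, and up to 5 members a list in each direction past 2-fold with the largest differences, plus 2 by level. The 38 lists had 3166 entries, 2838 genes measured and 1210 kept. NLGN1, ALCAM, NECTIN3, NRP1, PLXNA3, ITPR1, AHR, ELOVL6, PSAT1, DCK, SLC38A1, SLC12A2, MKI67, CCNB2, PLK1, PCNA, NOTCH1, KRT18, SNAI2, ABHD10, ATG3, HLA-DMA and HLA-DMB were added after their values were seen. Genes not measured under 1 symbol are not analysed here. Alternatives were the deposited values, median alignment, normalization of 2 arrays, means of probe sets, other filters and siControl LTAD. Python 3.11.15, numpy 2.4.6, pandas 2.3.3 and matplotlib 3.10.9 were used, and the code was tested on simulated data.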

Additional observations from a re-analysis of the deposited data

How the results depend on the processing

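No paired analysis was possible because each group had 1 array and the labels carry no replicate numbers to pair. The count of genes at least 2-fold higher, 221, was 354 with the deposited values and 120 with a filter at the 75th percentile, which also took the lower count from 334 to 168. The median difference of mitosis and DNA replication genes, -1.24, was 0.0039 when siControl LTAD stood in for untransfected LTAD, over the genes kept there. Of the 154 genes past 2-fold that the naming rule picked, 8 were no longer past it with the deposited values, 14 with median alignment, 8 with normalization of the 2 arrays alone and 2 with means of probe sets (AKR1C1 at -0.37 and ALDH1A3 at -0.67). None of the 154 changed sign under those 4 alternatives. Genes under the filter in 1 array are limited by signal over background.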

Other observations

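Several genes at the ends of the ranking fall outside the groups above. DOK6, an adaptor of receptor tyrosine kinases, read 6.47 in LNCaP, 10.38 in untransfected LTAD and 8.68 with siControl. ST8SIA4, which adds polysialic acid to adhesion molecules, read 6.11, 9.90 and 10.44. For both genes the LTAD arrays, transfected or not, were above the filter of 7.23 and LNCaP was under it. MALL, a membrane raft protein, read 9.18 in LNCaP and 6.14 in untransfected LTAD, and OTULINL read 8.65 and 5.62, with LTAD under the filter. The filter value was missed by LNCaP in all 15 highest genes and by LTAD in 13 of the 15 lowest.

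Genes next to each other on a chromosome sometimes lay on the same side. In the order of the kept genes along the genome there were 24 runs of adjacent genes at least 2-fold higher, holding 54 genes, and 23 runs at least 2-fold lower, holding 48 genes. The longest in either direction held 3 genes. Runs of higher genes joined ROBO2 with ROBO1, AGR2 with AHR, and NECTIN3 with ABHD10 and ATG3. Runs of lower genes joined PI3 with SLPI, MAGEC1 with MAGEC2, and HLA-DMB with HLA-DMA, which load peptides onto class II molecules. HLA-DMB read 7.76 in LNCaP and 6.74 in LTAD, and HLA-DMA read 9.29 and 8.26. With the deposited values they differed by -0.74 and -0.81, short of 2-fold, as ATG3 did at 0.90 when arrays were aligned on their medians. The number of runs in a random order was not computed, and copy number was not measured.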
